A study of Mus musculus with 6 samples.

Results

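The collagen chain genes of mouse embryonic stem cells were examined here: every gene whose array symbol is Col, a number, a and a number, taken only from probe sets annotated to 1 symbol. This gave 42 genes of the 18194 measured. Of their 82 probe sets, the brightest by mean log2 over the 6 arrays stood for each gene, and 27 genes had several. By textbook roles, 11 genes encode fibrillar chains, 9 encode basement membrane chains (the 6 type IV chains with collagens VII, XV and XVIII, which lie at or beside basement membranes) and 22 fall in neither class. Col28a1 and Col6a6, also in the RefSeq list of 44 symbols of this form, were not among the probe sets used.

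The cells were embryonic stem cells on a 129/B6 hybrid background, and the study asked what is expressed when Rybp, Yaf2 or both are reduced. Rybp and Yaf2 are related subunits of Polycomb repressive complex 1, which marks histone H2A at silent genes. There were 3 clones: clone 3031 with wild-type Yaf2 (Yaf2wt) and clones 3086 and 3087 with a Yaf2 knockdown, called mutant in other labels (Yaf2kd). Each clone gave 1 array from untreated cells (OHT-, with wild-type Rybp) and 1 from cells exposed to 4-hydroxytamoxifen (0.8 µM, 24 hours), which removes Rybp (OHT+). OHT+ is therefore drug and Rybp loss together in every clone, Yaf2wt is a single clone, and Yaf2 status and clone cannot be told apart. Irradiated embryonic fibroblasts or gelatin served as the growth surface, and the sources used here do not say which one each sample had. In such bulk RNA, fewer cells of a type and less RNA per cell cannot be told apart.

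Collagens are triple helices of 3 alpha chains, assembled in the endoplasmic reticulum after prolines and lysines are hydroxylated. Fibrillar collagens are trimmed outside the cell and crosslinked into fibrils, whereas type IV chains form the sheet-like network of basement membranes, which early embryonic cells lay down with laminins. Collagens that are neither include the beaded-filament chains of collagen VI, fibril-associated chains and transmembrane chains.

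Intensity is given in the deposited linear units and differences in log2. A gene whose mean log2 lay in the lowest 40% of all genes, at or under an intensity of 106, is called dim. By this limit 19 collagen genes had higher signal and 23 were dim. Of the 19, 17 lay above the limit in the mean of the OHT- and of the OHT+ arrays; Col13a1 did so only with OHT and Col2a1 only without, and counts and medians over the 19 are descriptions. By Yaf2 status, Col12a1 lay above the limit only in the Yaf2kd mean. The higher-signal genes were 7 fibrillar, 5 basement membrane and 7 other collagens. Intensities of different probe sets are not on a common scale, so levels are compared only within a gene.

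**Figure D1:**
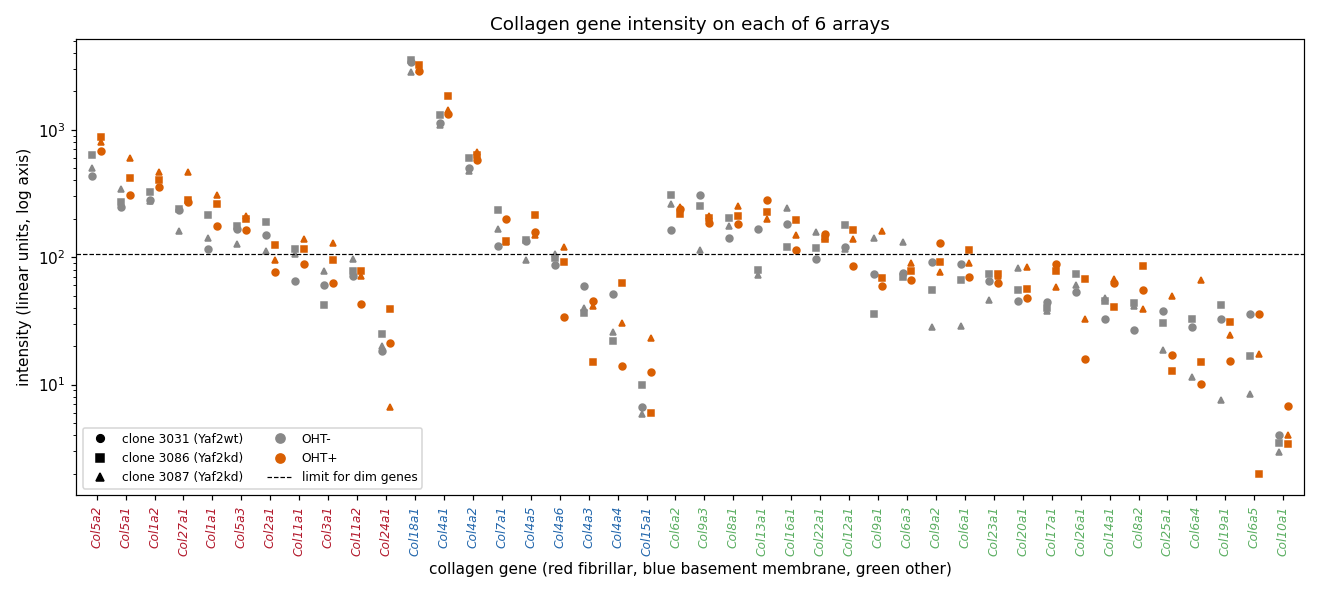
Intensity of the 42 collagen genes (linear units on a log axis) on each of the 6 arrays, grouped as fibrillar, basement membrane and other and ordered by mean intensity within each group. Marker shape is the clone, grey is OHT- and orange OHT+, and the dashed line is the limit of 106 for dim genes. Points of different genes come from different probe sets and are not on a common scale; in Col13a1 and Col5a2 the orange points lie above all grey ones, in Col18a1 they do not.

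RefSeq promoter sequences (GRCm38.p6, 250 bases before an annotated start and 50 from it) were found for 33 of the 42 genes, in 36 windows, and for 13 of the 19 higher-signal genes. Col5a2, Col1a1, Col2a1, Col9a3, Col12a1 and Col22a1 had no entry. The stretches shown lie directly before the outermost annotated start of 3 genes that were higher with OHT in every clone, and between the paired starts of the chains Col4a1 and Col4a2. Each is printed 5′ to 3′ on the strand given. In the first 3, capitals mark the TATA box letters TATAAA, the box CCAAT and the GC box letters GGGCGG, each on either strand; in the last, they mark the bases from one annotated start to the other.

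Col13a1, chr10:61979207-61979358, minus strand: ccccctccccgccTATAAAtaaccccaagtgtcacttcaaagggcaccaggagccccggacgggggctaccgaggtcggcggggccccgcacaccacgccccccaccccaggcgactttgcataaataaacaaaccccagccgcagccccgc
Col5a1, chr2:27886175-27886380, plus strand: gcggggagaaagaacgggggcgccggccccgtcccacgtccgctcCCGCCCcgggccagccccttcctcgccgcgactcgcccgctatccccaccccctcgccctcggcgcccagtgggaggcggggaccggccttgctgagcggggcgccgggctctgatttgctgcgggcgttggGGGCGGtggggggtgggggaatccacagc
Col1a2, chr6:4505368-4505617, plus strand: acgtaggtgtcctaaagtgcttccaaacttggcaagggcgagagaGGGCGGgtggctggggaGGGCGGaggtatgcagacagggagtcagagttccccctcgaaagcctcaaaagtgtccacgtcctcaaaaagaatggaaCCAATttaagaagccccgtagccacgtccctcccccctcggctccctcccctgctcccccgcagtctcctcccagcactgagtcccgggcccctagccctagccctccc
Col4a1 and Col4a2, chr8:11312801-11312830, plus strand: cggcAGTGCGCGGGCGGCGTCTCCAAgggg

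The Col13a1 stretch holds 1 TATAAA, which begins 139 bases before the start. The Col5a1 stretch holds GGGCGG at 161 and 29 bases, and the Col1a2 stretch holds GGGCGG at 205 and 188 bases and CCAAT at 109 bases before the start. The annotated start of Col4a1 (minus strand, 11312826) and that of Col4a2 (plus strand, 11312805) face away from each other and overlap by 22 bases, the known head-to-head arrangement of these chains. On both strands, with overlaps between motifs allowed, GGGCGG was found in 22 of the 36 collagen windows (61.1%) and in 35.7% of all 32851 windows. It was found in 13 of the 15 windows of higher-signal collagen genes (86.7%). The share in windows of all higher-signal genes was not computed. Some of the 15 windows share bases, as those of Col4a1 and Col4a2 do and those of Col6a2. CCAAT was found in 36.1% of collagen windows and 37.4% of all, TATAAA in 13.9% and 13.6%, and CACGTG in 0 of 36 and 7.15%. The median GC content was 59.8% in the collagen windows, 63.3% in those of higher-signal collagen genes and 52.7% in all windows. These counts describe letters in a window and show no binding.

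The labels were first checked on the targeted genes and on cell type markers. Of the Rybp probe sets, both annotated to Rybp and the pseudogene Rybp-ps, the first had a mean of 2014 without OHT and 85.8 with it, and the second 242 and 3162; the sources used here do not place either relative to the deleted part. The Yaf2 probe sets stood in Yaf2kd at 34.9% and 37.7% of the Yaf2wt mean. All 10 embryonic stem cell markers had higher signal on these arrays. Of them 8 were higher with OHT in all 3 clones (18.2% of all higher-signal genes were). Among these were Klf4 (difference 0.90 ± 0.24 SE), Nanog (0.42 ± 0.11) and Fgf4 (0.36 ± 0.12). Only Utf1 (-0.27 ± 0.13) was lower in all 3 (20.4% of all higher-signal genes were). Of the fibroblast markers, 19 of 20 were measured and 8 were dim (Pdgfra, Twist1, Twist2, Prrx1, Dcn, Lum, Fap and Thbs2); none was listed at 0. No marker of either list passed limma's test in the OHT effect.

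With OHT, most fibrillar collagen genes of higher signal, read by their brightest probe sets, and all 3 type IV chains of higher signal stood above their untreated level. Col13a1, of the other collagens, differed by the most. None of these differences passed the test over all genes. Over the 3 clones, the OHT difference of the 19 higher-signal collagens had a median of 0.30, whereas all 10916 higher-signal genes had a median of -0.0082. It was 0.58 for the 7 fibrillar genes, 0.26 for the 5 basement membrane genes and -0.01 for the 7 others. The number higher with OHT was 6 of 7, 3 of 5 and 3 of 7 in the same order. The order of the classes depended on the probe sets: with the mean of all probe sets of a gene, many of them dim, the median was -0.04 for fibrillar genes, 0.26 for basement membrane genes and 0.38 for the others, and 0.26 over the 19. Without clone 3087 the fibrillar median was 0.33, and without clone 3086 that of the others was 0.23. In all, 12 of the 19 were higher (48.2% of all higher-signal genes were), and 25 of the 42 (49.5% of all genes).

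Limma (lmFit and eBayes, log2 intensity on Yaf2 status and OHT over 6 arrays, Benjamini-Hochberg over 18194 genes) called 0 of the 42 collagen genes at an adjusted p under 0.05. The background was 0%: of all genes 0 were called, whereas 818 were higher and 713 lower at an unadjusted p under 0.05. At that unadjusted limit 6 collagen genes were higher, beside 4.5% of all genes, and 0 were lower, beside 3.92%. The 6 were Col13a1, Col17a1, Col5a2, Col1a2, Col1a1 and Col9a2. Of the 19 higher-signal genes 4 were higher (background 3.82%) and 0 lower (background 3.4%). An eBayes fit with an intensity trend called 0.33% of all genes, and a fit without the dim genes called 0.348% of those left; both called 0 collagens.

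Counting clones in place of testing, 15 of 42 collagen genes were higher with OHT in all 3 clones (background 16.8%) and 3 were lower in all 3 (background 17.6%). Of the higher-signal genes the counts were 10 of 19 (background 18.2%) and 1 of 19 (background 20.4%). In 7 of 42 genes every OHT+ array lay above every OHT- array (background 7.49%), and in 0 every OHT+ array lay below (background 7.08%). These 7 were Col4a1, Col5a2, Col1a2, Col27a1, Col13a1, Col4a5 and Col17a1. All but Col17a1 are higher-signal genes, 6 of 19 (background 8.21%), with 0 of 19 wholly below (background 8.24%). With 3 arrays against 3, an exact two-sided permutation test of a single gene cannot give a p under 0.1. The medians of the 19 genes within clones 3031, 3086 and 3087 were 0.23, 0.24 and 0.53.

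**Figure D2:**
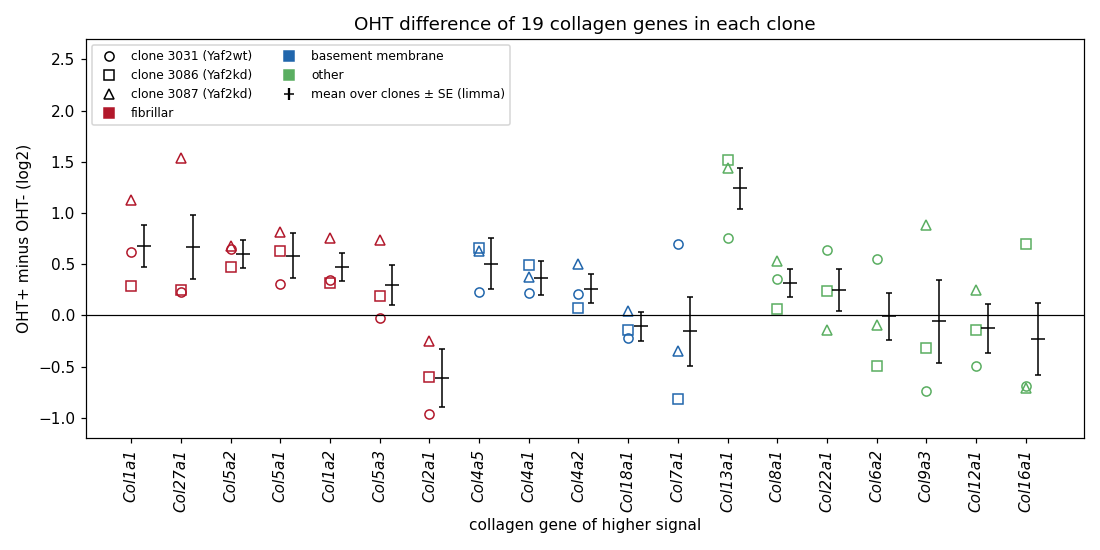
Difference between the OHT+ and OHT- arrays (log2) of the 19 higher-signal collagen genes in each clone (open markers, shape by clone, colour by class), with the mean over clones and its standard error from limma in black. On these brightest probe sets 5 of 7 fibrillar genes lie above the zero line in all 3 clones, Col2a1 lies below it in all 3, and Col13a1 has the highest mean, 1.24.

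Among fibrillar collagens, the main chains of collagens I and V were read first. Col1a1, the alpha-1 chain of collagen I, read 115, 215 and 141 without OHT in clones 3031, 3086 and 3087 and 177, 262 and 308 with it. The OHT difference was 0.67 ± 0.21 SE (limma adjusted p = 0.552). It was higher with OHT in every clone, although the arrays of the groups overlapped. Col1a2, the alpha-2 chain of the same trimer, read 279, 326 and 277 without OHT and 356, 406 and 466 with it. The difference was 0.47 ± 0.14 SE (limma adjusted p = 0.538), and the groups did not overlap. Its second probe set of higher signal moved by 0.16, and another, a dim one, by -1.67; with all 3 averaged the Col1a2 difference turned to -0.35.

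Col5a2, a chain of the collagen V that nucleates collagen I fibrils, read 436, 630 and 505 without OHT and 684, 873 and 808 with it. Every OHT+ array was above every OHT- array, by 0.60 ± 0.14 SE on the log2 scale (limma adjusted p = 0.467). On the brightest probe sets, the clone differences of Col5a2 were the closest together of these chains, at 0.65, 0.47 and 0.68. On a dim second probe set of Col5a2 they were -0.27, 0.69 and 0.74 in clones 3031, 3086 and 3087, and the groups overlapped. Its partner chain Col5a1 read 247, 272 and 345 without OHT and 306, 422 and 605 with it, a difference of 0.58 ± 0.22 SE. Clone 3087 stood highest in both conditions, and the groups overlapped. A second Col5a1 probe set of higher signal moved by 0.19, and the mean of its 3 probe sets by -0.04. Col5a3, a further collagen V chain, differed by -0.03, 0.19 and 0.73 in clones 3031, 3086 and 3087, and by -0.27 with its probe sets averaged.

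The OHT difference was set side by side in 3 pairs of partner chains of higher signal. The OHT difference of Col1a1 exceeded that of Col1a2 by 0.20 ± 0.21 (SD, n = 3 clones), and that of Col4a1 exceeded that of Col4a2 by 0.10 ± 0.28. Between Col5a1 and Col5a2 the gap was -0.02 ± 0.28. All 3 gaps were smaller than their spread over clones, on the brightest probe sets; with all probe sets averaged, Col1a1 was at 0.61 and Col1a2 at -0.35. On the brightest probe sets, partner chains that include dim genes lay further apart. Col6a1, Col6a2 and Col6a3 were at 0.69, -0.01 and -0.19, and Col9a1, Col9a2 and Col9a3 at 0.28, 0.88 and -0.06. Col4a5 was at 0.51 beside -0.54 and -0.03 for Col4a3 and Col4a4. These gaps depended on the probe set: the second higher-signal probe sets of Col6a2 and Col9a3 moved by 0.77 and 0.24. The spread over clones was wide, with an SD of 0.99 for Col6a1 and 1.71 for Col4a4.

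The remaining fibrillar genes did not share a direction. Col27a1, a fibrillar chain found in cartilage, read 233, 238 and 160 without OHT and 273, 282 and 464 with it. Its mean difference of 0.67 ± 0.31 SE rested on clone 3087 (1.54), beside 0.23 and 0.24 in the other clones; its second probe set, a dim one, moved by -0.02. Col2a1, the chain of the main cartilage collagen, read 149, 190 and 112 without OHT and 76.6, 125 and 94.3 with it. It was the only higher-signal collagen lower in all 3 clones (-0.61 ± 0.28 SE, limma adjusted p = 0.648). The dim fibrillar genes were Col3a1, Col11a1, Col11a2 and Col24a1, at differences from -0.39 to 0.66.

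**Figure D3:**
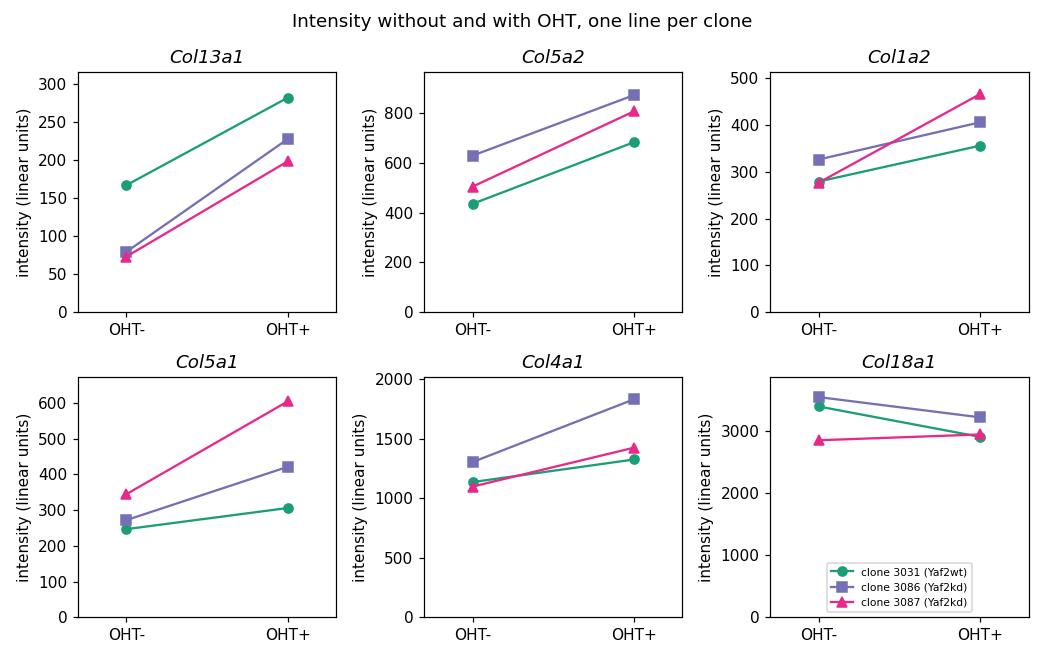
Intensity (linear units, axes from 0) of 6 collagen genes without and with OHT, with a line for each clone. Col13a1, Col5a2, Col1a2, Col5a1 and Col4a1 run upward in all 3 clones, whereas Col18a1 runs slightly down in clones 3031 and 3086 and slightly up in clone 3087.

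The type IV chains split by signal. Col4a1 and Col4a2, which together form the most widespread type IV trimer, had higher signal, as did Col4a5 of the alternative trimers. Col4a1 read 1137, 1305 and 1099 without OHT and 1327, 1833 and 1426 with it, and the groups did not overlap. The difference was 0.36 ± 0.16 SE (limma adjusted p = 0.636). A second Col4a1 probe set of higher signal moved by 0.26. It was lower in clone 3086 (-0.14), and its groups overlapped. Col4a2 read 500, 604 and 470 without OHT and 576, 637 and 665 with it, a difference of 0.26 ± 0.14 SE with overlapping groups. Col4a5 read 134, 137 and 95.6 without OHT and 157, 216 and 148 with it, a difference of 0.51 ± 0.25 SE. On their brightest probe sets these 3 chains were higher with OHT in all 3 clones. The dim chains Col4a3, Col4a4 and Col4a6 differed by -0.54, -0.03 and -0.42.

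The other collagens at basement membranes did not follow the type IV chains. Col18a1, whose chain carries endostatin at its end, read 3399, 3550 and 2854 without OHT and 2909, 3223 and 2948 with it. The difference was -0.11 ± 0.14 SE, and a second probe set moved by -0.20. Col7a1, the chain of the anchoring fibrils of skin, read 122, 236 and 167 without OHT and 199, 134 and 131 with it. It was thus higher with OHT in the Yaf2wt clone and lower in both Yaf2kd clones. Col15a1 was dim, at intensities from 5.89 to 23.2.

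Of the other collagens, Col13a1 stood apart from the rest. Col13a1 encodes a transmembrane collagen found at cell adhesions and the neuromuscular junction. It read 167, 79.3 and 73.1 without OHT in clones 3031, 3086 and 3087 and 282, 228 and 198 with it. All 3 OHT+ arrays lay above all OHT- arrays, at a mean of 236 ± 42.4 (SD, n = 3) against 106 ± 52.4. The difference was 1.24 ± 0.20 SE on the log2 scale, or 2.36-fold, with clone values of 0.76, 1.52 and 1.44.

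The limma adjusted p of Col13a1 for OHT was 0.398 over all genes, the lowest of the 42 collagens. It was 0.110 with an intensity trend, 0.0530 without the dim genes and 0.152 on log2(intensity + 50). In 2 fits added after the data were seen, both without the dim genes, Col13a1 passed: its adjusted p was 0.0482 with the clone as a block, where 0.586% of genes were called, and 0.0287 with a trend, where 1.15% were called. No other collagen passed in either. These passes are no support for the difference: the mean log2 of Col13a1 was 6.63 on the OHT- arrays, under the limit of 6.73 for dim genes, and 7.87 on the OHT+ arrays, so it stayed in the fits only through the group in which it is high. Col13a1 had a single probe set, and the size of its difference is uncertain.

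Col8a1, a network-forming collagen of vessel walls and the cornea, was higher with OHT in all 3 clones, by 0.36, 0.06 and 0.53. Its second probe set of higher signal moved by 0.16 and a dim one by -0.51, and the mean of the 3 by -0.01. Col22a1, a collagen of tissue junctions such as muscle and tendon, differed by 0.64, 0.24 and -0.14. Col6a2, a chain of the beaded filaments, differed by -0.01 ± 0.23 SE and turned sign between clones, while its second probe set moved by 0.77. Col9a3, of the collagen IX on cartilage fibrils, differed by -0.06 ± 0.40 SE with clone values from -0.74 to 0.88, while its second probe set of higher signal was at 0.21, 0.25 and 0.25 in the 3 clones. Col12a1 and Col16a1, both fibril-associated, differed by -0.13 ± 0.24 and -0.23 ± 0.35 SE. A dim second Col12a1 probe set moved the other way, by 0.80, in all 3 clones.

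The 23 dim collagens had a median OHT difference of 0.05, beside 0.02 for all 7278 dim genes, and 13 were higher. The highest were Col9a2, a collagen IX chain, at 0.88 ± 0.33 SE, and Col17a1, the transmembrane collagen of hemidesmosomes, at 0.86 ± 0.16 SE. Col17a1 read 44.8, 39.6 and 37.5 without OHT and 88.5, 77.8 and 58.0 with it, with no overlap (limma adjusted p = 0.411). The lowest were Col26a1, at -0.92 ± 0.42 SE, and Col6a5, at -0.68 ± 0.95 SE. Intensities of Col6a5 ran from 1.98 to 35.9, and the sizes of dim genes are uncertain.

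Markers of other cell types moved on the same arrays. The 19 fibroblast markers had a median OHT difference of 0.31, with 14 higher and 5 lower. In all 3 clones 7 were higher (background 16.8%), led by Pdgfrb (1.34 ± 0.27 SE), Fbln2 (0.63) and Tnc (0.61). Only 1, Tagln (-0.26), was lower in all 3 (background 17.6%). Pdgfrb read 73.4, 101 and 61.4 without OHT, each under the limit for dim genes, and 169, 254 and 172 with it. It thus had higher signal only through the OHT+ arrays, and the size of its difference is uncertain. The summed intensity of the 19 fibroblast markers lay between 12565 and 17663 with OHT and between 11637 and 17697 without. It was 11637 to 12565 in Yaf2wt and 14746 to 17697 in Yaf2kd. Acta2, Tagln and Ccn2, at mean intensities of 4018, 3745 and 3540, held most of that sum, so it says little about the other markers. The part of the fibroblast markers in the collagen differences was not tested. The 14 endoderm markers, 8 of them dim, had a median of -0.02, with 7 higher and 7 lower. In all 3 clones 4 were lower (background 17.6%) and 2 higher (background 16.8%). The summed intensity of the 14 lay between 2840 and 3372 with OHT and between 3399 and 4491 without. Lrp2, an endocytic receptor, held the largest part of that sum, at 1242 to 1439 with OHT and 1869 to 2621 without. It fell by 0.73 ± 0.15 SE. Lrp2 passed in the fit with an intensity trend (limma adjusted p = 0.0349) but not over all genes without the trend (0.451). Thbd differed by 0.62 and Amn by 0.30 (-0.0027 without clone 3087). Thbd read 76.4, 96.5 and 130 without OHT and 157, 133 and 167 with it. The mean log2 of Thbd without OHT lay under the limit for dim genes. It thus had higher signal only through the OHT+ arrays. The endothelial list (5 genes, 3 dim) had a median of 0.29, with Tek at -0.36 (-0.15 without clone 3087) and Pecam1 at 0.29 as its higher-signal members. The chondrocyte list (5 genes, 4 dim) had a median of -0.10, and Acan, its higher-signal member, was at 0.77 (0.21 without clone 3087). Acan read 126, 169 and 46.8 without OHT and 163, 174 and 173 with it. The mean log2 of Acan without OHT also lay under the limit for dim genes. It too had higher signal only through the OHT+ arrays.

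The genes that make, trim, bind and degrade collagen were given the same tests, and 0 of them passed for OHT over all genes, with a trend or without the dim genes. Of all genes, 16.8% were higher and 17.6% lower in all 3 clones. The list counts beside these shares are descriptions and were not tested. Of 17 measured modification and folding genes, 7 were higher in all 3 clones and 1 was lower; the largest differences of higher-signal members were P4ha2, a prolyl hydroxylase subunit, at 0.63 ± 0.15 SE, Plod2, a lysyl hydroxylase, at 0.43 ± 0.17, and Serpinh1, the collagen chaperone, at 0.33 ± 0.16. P4ha2 read 348, 310 and 401 without OHT and 528, 527 and 577 with it, with no overlap. Of 11 processing and crosslinking genes, 3 were higher in all 3 clones: the lysyl oxidase family genes Loxl3 (0.55 ± 0.23), Lox (0.42 ± 0.18) and Loxl1 (0.25 ± 0.14). Bmp1, which trims procollagen ends, differed by -1.30 ± 0.86, and by -0.53 without clone 3087. It read 150, 184 and 174 without OHT and 63.6, 208 and 24.4 with it. The mean log2 of Bmp1 with OHT lay under the limit for dim genes. It thus had higher signal only through the OHT- arrays, and the size of its difference is uncertain.

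Among 14 basement membrane partners, 5 were higher in all 3 clones (background 16.8%) and 2 lower (background 17.6%). Of the higher-signal partners, the largest differences were in the laminin chains Lamb3 (0.83 ± 0.24 SE) and Lama1 (0.47 ± 0.16) and in nidogen-1, Nid1 (0.46 ± 0.11), which links laminin to type IV collagen. Nid1 read 1372, 1237 and 1238 without OHT and 1737, 1875 and 1692 with it, so its groups did not overlap either. The dim laminin chains Lama2 and Lama4 differed by more, -1.27 ± 0.46 and 0.80 ± 0.31. Of 8 collagenase, gelatinase and inhibitor genes, 4 were higher in all 3 clones, with Timp3 at 0.51 ± 0.18, Mmp2 at 0.39 ± 0.14 and Timp2 at 0.38 ± 0.12. Of 9 receptors, 7 were dim; Itgb1, the integrin beta-1 chain, differed by 0.02. Ddr1, a collagen-binding kinase, differed by -0.52 ± 0.47, a value that rested on clone 3087 (-1.58): clones 3031 and 3086 were at 0.11 and -0.08, and their mean was 0.01.

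Between the Yaf2kd clones and the Yaf2wt clone, most higher-signal collagens stood somewhat higher in Yaf2kd, and none passed. The median Yaf2 difference of the 19, adjusted for OHT, was 0.20 with 15 above 0, beside 0.03 for all higher-signal genes, of which 55.8% were above 0. With the mean of all probe sets the median was 0.06, and that of the other collagens turned from 0.24 to -0.31. Of all 42, 29 were above 0 (background 54.8%). Limma, with the arrays of a clone treated as separate samples, called 0 of the 42 collagens and 0 of all genes (background 0%). At an unadjusted p under 0.05, 3 collagens were higher (background 4.67%) and 2 lower (background 2.58%), and of the 19 higher-signal genes 1 was higher (background 3.43%) and 1 lower (background 2.34%). All 7 higher-signal fibrillar genes were above 0, led by Col1a1 (0.64 ± 0.22 SE, limma adjusted p = 0.680), Col5a1 (0.52 ± 0.23) and Col5a2 (0.33 ± 0.15). That count did not hold in every setting: on the OHT- arrays alone Col27a1 was at -0.26, Col5a3 at -0.17 and Col2a1 at -0.03, and with all probe sets averaged Col5a3 was at -1.03. Among the others, Col12a1 differed by 0.53 ± 0.26, Col6a2 by 0.39 ± 0.24 and Col8a1 by 0.38 ± 0.14. The mean log2 of Col12a1 was 6.665 in Yaf2wt, under the limit of 6.73 for dim genes, and 7.20 in Yaf2kd. It thus counted among the 19 only through the group in which it is higher. With all probe sets averaged Col12a1 was at -0.04 and Col8a1 at -0.31. The second higher-signal probe set of Col8a1 was at 0.38, and its dim one at -1.69. The fibroblast marker sums, given above and held mostly by Acta2, Tagln and Ccn2, were also higher on the Yaf2kd arrays. The part of the fibroblast markers in these differences was not tested.

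Col13a1 went the other way. It was -1.13 in Yaf2kd without OHT and -0.41 with it, and the adjusted difference was -0.77 ± 0.21 SE (limma adjusted p = 0.680). The median of the 19 genes was 0.09 on the OHT- arrays alone and 0.29 on the OHT+ arrays alone. All 4 Yaf2kd arrays lay above both Yaf2wt arrays for 3 of 42 genes (background 11%), all dim: Col11a1, Col4a6 and Col20a1. They lay below both for 4 (background 7.5%), also all dim: Col9a2, Col4a3, Col6a5 and Col10a1. Of the 19 higher-signal genes the counts were 0 above (background 12.9%) and 0 below (background 9.12%). Col11a1, a minor fibrillar chain just under the limit for dim genes, read 65.4 and 88.1 in Yaf2wt and 107 to 138 in Yaf2kd, a difference of 0.64 ± 0.15 SE. A second Col11a1 probe set, also dim, went the other way, at -0.83, and its groups overlapped.

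**Figure D4:**
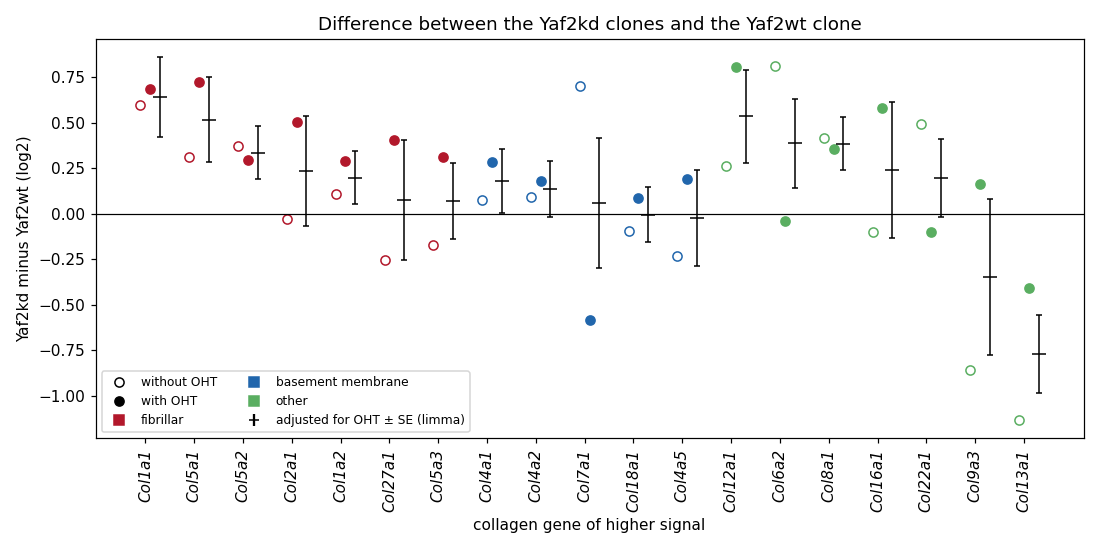
Difference between the mean of the Yaf2kd clones and the Yaf2wt clone (log2) for the 19 higher-signal collagen genes, without OHT (open) and with OHT (filled), with the difference adjusted for OHT and its standard error from limma in black; colour is the class. Col1a1 lies highest at 0.64 and Col13a1 lowest at -0.77, and Col7a1 changes sign between the conditions.

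Whether the OHT difference depended on Yaf2 was tested as an interaction in a model of the 4 groups. There the spread comes from the Yaf2kd arrays and is taken to hold for the single arrays of Yaf2wt. Limma called 0 collagens and 0 genes (background 0%). The median interaction of the 19 was 0.21, beside 0.03 for all higher-signal genes, and it ran from 0.0862 to 0.334 when an array was left out. Col7a1 had the lowest value of the 42, at -1.28 ± 0.42 SE, with 0.70 in clone 3031 against -0.81 and -0.35 in clones 3086 and 3087. The highest was that of the dim chain Col4a4, at 2.73 ± 0.76 SE. In 6 of 42 collagens the Yaf2wt clone moved opposite to both Yaf2kd clones (background 20.5%), 3 of them higher-signal genes, Col7a1, Col6a2 and Col5a3, of 19 (background 18%). Col13a1 differed by 0.72 ± 0.31 SE, higher with OHT in all 3 clones.

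For 1 collagen of each class, taken as the gene with the highest mean intensity and not as a ranking of levels, the genes whose log2 values followed it most closely over the 6 arrays were listed as a description. For Col5a2 these were Gcnt1, Pimreg and Tekt1 (Pearson r from 0.983 to 0.989), for Col18a1 Map9, Smcr8 and Hacl1 (0.988 to 0.991), and for Col6a2 Uap1, Otud4 and Ctdspl (0.959 to 0.985). Each was the best of 10915 genes compared over only 6 arrays, and 34, 25 and 7 genes passed an r of 0.95 in the same order.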

How the data were processed

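Each of the 6 arrays gave 1 value per probe set. The deposited values are intensity, and per the submitters' processing notes Affymetrix Expression Console and RMA were used; the sources used here give neither role nor version. All 45101 values per array were above 0, ran from 0.140 to 45795 and held the same sorted values on every array, so they were taken as linear and quantile-normalized, and log2 was taken without a pseudocount. The series text names an array design (430A 2.0) that holds fewer probe sets than the table; symbols came from the annotation given for the table's own probe sets. Of these, 34958 had 1 gene symbol and 932 several; the latter were not named.

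Genes were fitted with limma 3.58.1 in R 4.3.3 (lmFit, eBayes, Benjamini-Hochberg over 18194 genes, threshold 0.05), with 3 residual degrees of freedom in the additive model and 2 in the model of the 4 groups. The scripts were tested on simulated data. The members, classes and gene lists (119 entries, 112 measured) were chosen with earlier results of these data known. All 19 higher-signal collagens are named; of dim ones those that passed, of which there were none, and the 2 highest and 2 lowest by OHT difference, others being named only in counts or class ranges; of lists, those that passed in any fit and the 3 largest OHT differences of higher-signal members. P4ha2, Nid1, Loxl1, Itgb1, Lama2, Lama4, Tagln, Utf1, Col11a1 and dim markers or chains listed by name were also given, some chosen after their values were seen.

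Yaf2kd replicates are separate clones, whereas Yaf2wt is a single clone. A p-value here reflects the spread among these few arrays, whose number limits the precision. In the Yaf2 effect the arrays of a clone were treated as separate samples. Its standard errors and p-values therefore hold no spread between Yaf2wt clones. Arrays of a clone pair by label; their deviations in Yaf2kd correlated at r = 0.124 over 10916 higher-signal genes. Alternatives were log2(intensity + 50), leaving out the lowest 40% of genes, an intensity trend, the mean of all probe sets, the clone as a block, and leaving out each array or clone. RefSeq names and promoter windows are of GRCm38.p6.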

Additional observations from a re-analysis of the deposited data

How the results depend on the processing

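The count of collagen genes called for OHT was 0 in every alternative, leaving out each array included (0 to 0), except that it was 1 (Col13a1) in both fits added after the data were seen, which left out the dim genes, with the clone as a replicate block or with an intensity trend. With all genes and the clone as a replicate block, 0 were called and the limma adjusted p of Col13a1 was 0.539; over all its alternatives its OHT difference ran from 0.91 to 1.48. The pairing by clone changed no other call. The median OHT difference of the 19 higher-signal collagens ran from 0.250 to 0.384 when an array was left out, and the median interaction from 0.0862 to 0.334. The median Yaf2 difference of 0.196 was 0.0608 with the mean of all probe sets, 0.0932 on OHT- arrays only and 0.289 on OHT+ arrays only, and 0.0932 to 0.289 when an array was left out; the cause was not tested. At least 1 alternative turned the sign of the OHT difference for 9 of the 19 genes: Col12a1, Col16a1, Col1a2, Col5a1, Col5a3, Col6a2, Col7a1, Col8a1 and Col9a3. The sign of the Yaf2 difference turned in at least 1 alternative for 12 of the 19. The block could not be fitted for the Yaf2 effect, and the interaction could not be fitted without a Yaf2wt array. Of the values recomputed for single genes and classes, 737 stayed within the spread over clones, 135 moved by more and 2, both of Col13a1, came to pass the threshold.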
